A study of Mus musculus with 6 samples.

Results

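The genes of classical MHC class I antigen presentation and of the immunoproteasome were followed in epididymal fat, the visceral depot beside the epididymis, of mice on 2 diets. The members were taken by symbol from the count table through GENCODE M21: H2-K1, H2-D1, B2m, Tap1, Tap2, Tapbp, Psmb8, Psmb9, Nlrc5 and Ubd, that is 10 of the 54532 genes listed. All 10 passed the filter on low counts, which left 15751 genes tested. Male C57BL/6J mice were fed a normal diet (ND, 4.5% fat) or a high-fat diet (HFD, 60% fat) from 4 weeks of age for 16 weeks, with no further treatment, and whole fat was sequenced in 3 libraries per diet, so that fewer cells of a type and less RNA per cell cannot be told apart. The study asked whether fat of obese mice holds cells like the adipocytes found beside tumors. The labels do not say that each library is a separate mouse, so p-values measure the spread between these libraries, which may be technical.

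Every nucleated cell can show fragments of its own proteins on class I molecules, where CD8 T cells and NK cells read them. Proteasomes cut the proteins, the TAP transporter carries the peptides into the endoplasmic reticulum, and tapasin helps to load them onto a heavy chain paired with beta-2-microglobulin. Interferon-gamma switches many of these genes on together, replaces the standard catalytic subunits of the proteasome with immunoproteasome subunits, and acts in part through NLRC5, the class I transactivator. Ubd encodes FAT10, a ubiquitin-like tag inducible by interferon-gamma and TNF that sends proteins to the proteasome. It lies in the MHC region but is no part of the presentation pathway in the strict sense.

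Of the 10 genes, 1 passed the test for a difference between the diets. Ubd rose 37.1-fold on HFD (95% confidence interval 22.4 to 61.6), while the other 9 members lay between -0.32 and 0.22 on the log2 scale and none of them passed the test. Among all genes tested, 15.9% were called at an adjusted p under 0.05 by edgeR's quasi-likelihood test, 9.85% higher and 6.04% lower on HFD. The members' count, 1 of 10, was close to this background, so it is no result about the list as a whole. Of the other 9, 0 had an unadjusted p under 0.05, and 0 were called by DESeq2 or limma-voom. Without Ubd the median log2 fold change of the members was -0.08, beside 0.01 over all genes tested. Without any one library, Ubd was still the one member called.

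**Figure D1:**
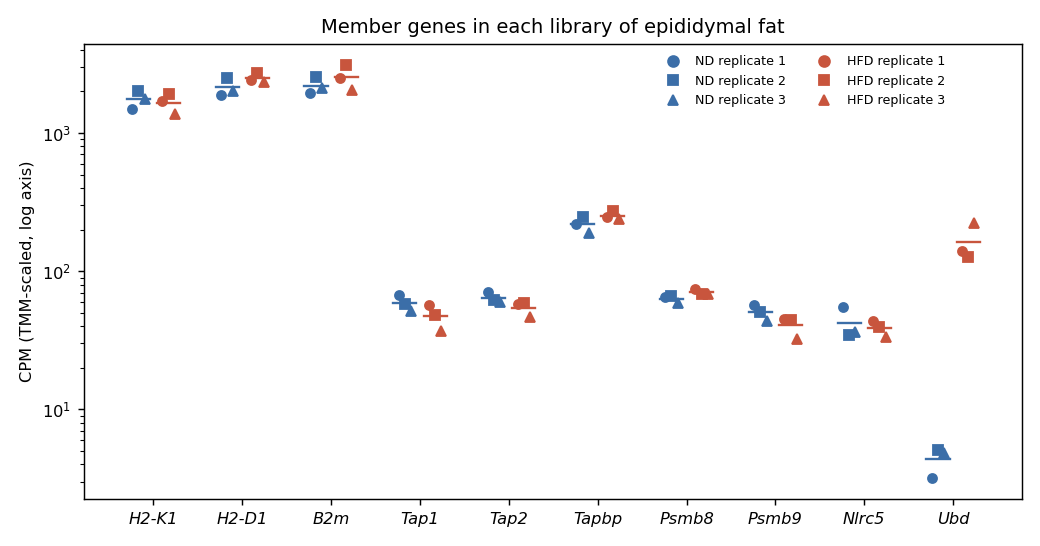
Expression of each member gene in the 3 ND (blue) and 3 HFD (red) libraries, as TMM-scaled CPM on a log axis, with a line at each group mean. The diets lie within a narrow band for 9 genes, while Ubd moves from 3.18 to 5.1 CPM on ND to 127 to 223 CPM on HFD.

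Of the members, 8 lie on chromosome 17, B2m on chromosome 2 and Nlrc5 on chromosome 8. In GENCODE M21 (GRCm38), H2-K1 spans chr17:33996017-34000347 on the minus strand, H2-D1 chr17:35262730-35267499 on the plus strand, and Ubd chr17:37193892-37196095 on the plus strand. B2m spans chr2:122147686-122153083 and Nlrc5 chr8:94434356-94527272, both on the plus strand. Between H2-K1 and H2-D1 sit Psmb9 (chr17:34181987-34187764, minus strand), Tap1 (chr17:34187553-34197225), Psmb8 (chr17:34197721-34201454) and Tap2 (chr17:34203527-34216321), the last 3 on the plus strand. Tapbp (chr17:33915899-33929292, plus strand) lies just outside, beyond H2-K1. All are protein-coding, and the counts cover their exons.

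Upstream sequence is shown for Ubd, the member that moved, beside H2-K1 and B2m, a heavy chain and its partner, which did not pass the test. Promoter sequence was found for 8 of the 10 members (not for Tap2 and Nlrc5) in RefSeq on GRCm38.p6. Each line gives the 250 bases before the transcription start, 5′ to 3′ on the gene's strand. Capitals mark matches to an NF-kB consensus and, in B2m, also to the ISRE letters.
Ubd (chr17:37193642-37193891, plus strand): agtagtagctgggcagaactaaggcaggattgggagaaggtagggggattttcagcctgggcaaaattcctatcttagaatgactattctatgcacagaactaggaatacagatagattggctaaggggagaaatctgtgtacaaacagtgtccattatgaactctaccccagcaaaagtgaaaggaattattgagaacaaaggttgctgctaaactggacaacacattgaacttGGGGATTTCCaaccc
H2-K1 (chr17:34000348-34000597, minus strand): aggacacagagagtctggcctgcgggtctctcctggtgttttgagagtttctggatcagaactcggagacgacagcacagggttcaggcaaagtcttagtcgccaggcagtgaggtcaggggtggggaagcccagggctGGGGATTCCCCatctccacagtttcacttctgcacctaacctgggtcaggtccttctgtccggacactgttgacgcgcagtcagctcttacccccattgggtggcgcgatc
B2m (chr2:122147437-122147686, plus strand): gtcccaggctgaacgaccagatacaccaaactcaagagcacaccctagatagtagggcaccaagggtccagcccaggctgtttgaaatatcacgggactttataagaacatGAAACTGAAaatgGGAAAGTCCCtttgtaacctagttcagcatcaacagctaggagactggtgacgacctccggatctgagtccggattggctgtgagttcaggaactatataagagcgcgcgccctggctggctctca

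The letters searched on both strands were GAAANNGAA for the interferon-stimulated response element (ISRE), TTCNNNGAA for the gamma-activated site (GAS), an NF-kB consensus of 10 letters, and CCAAT for the box bound by NF-Y. The NF-kB consensus was matched in 4 of the 8 promoters. In Ubd it begins 15 bases before the start. In H2-K1 it begins 111 and 110 bases before the start, as 2 matches that overlap in all but 1 base each, and H2-D1 has the same pair at 171 and 170. In B2m it begins 126 bases before the start, on the other strand, just after the ISRE match at 139. Of 27025 promoters of the same length, 7.01% hold the NF-kB letters, 7.16% the ISRE letters, 7.18% the GAS letters and 34.5% CCAAT. B2m alone of the 8 matched the ISRE letters and Psmb8 alone the GAS letters, 97 bases before its start. CCAAT was matched in each of the 8 but Psmb8, with 2 matches in Ubd, and Tap1 and Psmb9 share 1 match in the stretch between them. A match describes the letters and is not a measured binding site. An element that departs from these letters is missed, so a promoter without a match may still hold one. The genes with NF-kB letters include both the one that rose and 3 that did not pass the test.

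On ND, the reads counted for Ubd were 59, 88 and 98, and on HFD they were 2547, 2109 and 3883. As CPM, the count scaled to library size with TMM factors, ND libraries had 3.18, 5.1 and 4.87 (4.38 ± 1.05, SD, n = 3) against 139, 127 and 223 (163 ± 52.6, SD, n = 3) for HFD. The groups do not overlap, and the lowest HFD library was far above the highest ND library. The log2 fold change was 5.21 (SE 0.31, edgeR adjusted p = 0.00128). It ranked 55 of 1552 by fold change among the genes called higher and 5 of 15751 by p among the genes tested. Leaving out 1 library at a time gave 4.90 (without HFD replicate 3) to 5.37 (without HFD replicate 2).

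The other genes of FAT10 handling were much closer between the diets. Of the 5 on the list, the enzymes Uba6 and Ube2z that activate and transfer FAT10 and the binding partners Nub1, Hdac6 and Sqstm1, 0 passed the test and 2 had an unadjusted p under 0.05, which 34.0% of all genes had. Uba6 was at 25.3, 21 and 23.5 CPM on ND against 33.7, 28.8 and 39.5 CPM on HFD, with a log2 fold change of 0.54 (edgeR adjusted p = 0.0509). Sqstm1, the autophagy receptor p62, differed by 0.65 (edgeR adjusted p = 0.0607), Nub1 by 0.21, Ube2z by 0.14 and Hdac6 by -0.30 on the log2 scale (edgeR adjusted p = 0.282, 0.457 and 0.27). Uba6 and Sqstm1 did not overlap between the diets, which also held for 40.9% of all genes tested. Neither passed the threshold by edgeR or limma-voom, and both did by DESeq2.

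Class I itself was abundant on both diets. H2-K1, one of the classical heavy chains, was at 1483, 2010 and 1768 CPM on ND against 1703, 1900 and 1369 CPM on HFD. The groups overlapped throughout, with a log2 fold change of -0.08 (95% confidence interval -0.60 to 0.43, edgeR adjusted p = 0.822), whose sign turned without ND replicate 2 (0.03) or HFD replicate 3 (0.02). H2-D1, the other classical heavy chain of this strain, was at 1882, 2503 and 2022 CPM on ND against 2399, 2733 and 2355 CPM on HFD. It too overlapped, with a log2 fold change of 0.22 (-0.27 to 0.71, edgeR adjusted p = 0.49).

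B2m, the light chain that both heavy chains need, was at 1954, 2530 and 2122 CPM on ND against 2488, 3120 and 2053 CPM on HFD. HFD replicate 2 was highest and ND replicate 1 lowest, and the log2 fold change was 0.21 (-0.34 to 0.77, edgeR adjusted p = 0.567). Together H2-K1, H2-D1 and B2m took 0.544% to 0.649% of the counts of an ND library and 0.565% to 0.758% of those of an HFD library. Heavy chains resemble each other: 0.957% of the 100-base stretches of H2-K1 transcripts and 3.59% of those of H2-D1 also occur in other genes, genes of the H2-Q group among them, so a small part of their reads could have been split or dropped.

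The transporter and its loading partner also stayed close. Tap1, the first half-transporter of TAP, was at 67.4, 57.8 and 51.7 CPM on ND against 56.6, 48.4 and 37 CPM on HFD. These overlap, and the log2 fold change was -0.32 (-0.74 to 0.11, edgeR adjusted p = 0.259). Tap2, its partner, was at 70.3, 61.4 and 59.6 CPM on ND against 57.6, 59.2 and 46.6 CPM on HFD. All 3 HFD values were below all ND values, but by little, and the test was not passed (log2 fold change -0.23, -0.54 to 0.09, edgeR adjusted p = 0.274). Tapbp, which encodes tapasin, was at 220, 245 and 190 CPM on ND against 248, 272 and 238 CPM on HFD. HFD replicate 2 was highest and ND replicate 3 lowest, with a log2 fold change of 0.21 (-0.13 to 0.55, edgeR adjusted p = 0.353). Groups without overlap were seen in 3 of the 10 members (Tap2, Psmb8 and Ubd) and in 40.9% of all genes tested.

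Psmb8 and Psmb9 encode immunoproteasome subunits that take the places of Psmb5 and Psmb6. Psmb8 was at 65.2, 65.8 and 58.5 CPM on ND against 73.9, 68.3 and 68.3 CPM on HFD. The HFD libraries were all above the ND libraries by a narrow margin, with a log2 fold change of 0.15 (-0.10 to 0.40, edgeR adjusted p = 0.356). Psmb9 was at 56.8, 50.9 and 43.5 CPM on ND against 45.1, 44.6 and 32.6 CPM on HFD. It lay on the other side of zero, with overlapping groups and a log2 fold change of -0.31 (-0.70 to 0.08, edgeR adjusted p = 0.239). Psmb9 and Tap1 start head to head, with 225 bases between their RefSeq starts, and in GENCODE their first exons overlap by 212 bases. Since the library kit named in the labels does not keep strand, reads from that stretch cannot be assigned to one of the pair. Exon overlaps with other genes cover 29.0% of Tapbp, 18.5% of Tap2 and 14.7% of Psmb8.

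Nlrc5, the transactivator of class I genes, was at 55.1, 34.6 and 36.4 CPM on ND against 43.3, 39.7 and 33.4 CPM on HFD. ND replicate 1 stood above all other libraries and the groups overlapped. The log2 fold change was -0.12 (-0.60 to 0.36, edgeR adjusted p = 0.723), and without ND replicate 1 it was 0.12. For the 9 members that did not pass the test the upper ends of the intervals lay at or below 0.77 and the lower ends at or above -0.74 on the log2 scale.

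**Figure D2:**
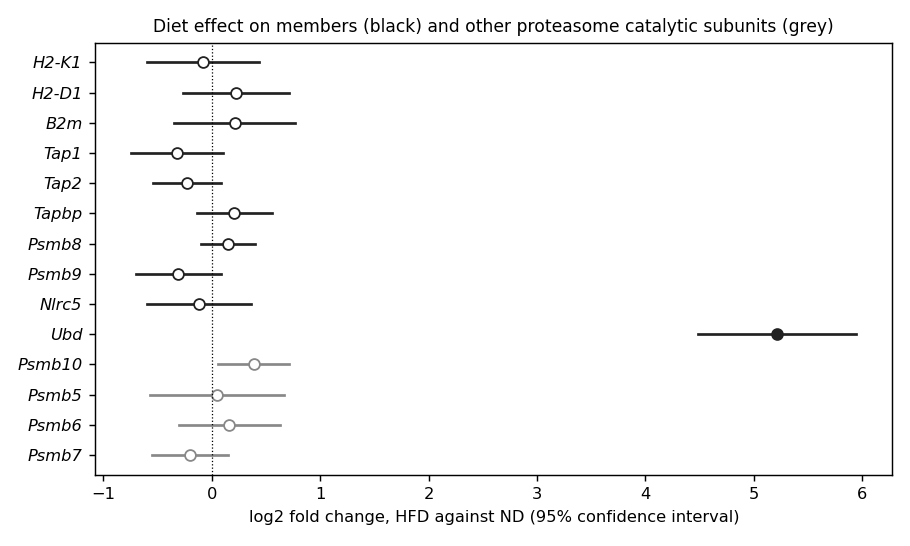
Log2 fold change of HFD against ND with its 95% confidence interval for the 10 members (black) and 4 other catalytic proteasome subunits (grey), filled where the adjusted p was under 0.05. The interval of Ubd (4.48 to 5.94) lies apart from all others, and Psmb10 (0.06 to 0.71) is the one other gene whose interval does not cover 0, though it was not called.

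Per length, the order of the members differed little between the diets apart from Ubd. Ranks across genes depend on the length used for each gene. Annotated exon bases over all transcripts number 860 for B2m and 931 for Ubd, but 3381 for Psmb8 and 3660 for Psmb9. A gene read mainly from a shorter transcript would stand higher, and the transcripts present were not tested. In FPKM, a count per length and library size, B2m was highest on ND (2604 ± 357, SD, n = 3), above H2-D1 (842 ± 131) and H2-K1 (684 ± 104), whose libraries overlap. Tapbp (67.5 ± 8.93), Psmb8 (23.5 ± 1.66), Tap2 (17.1 ± 1.61) and Psmb9 (14 ± 1.92) came next, each without overlap with the one above it. Tap1 (11 ± 1.52) overlapped Psmb9, and Nlrc5 (5.03 ± 1.38) and Ubd (4.79 ± 1.14) overlapped each other at the foot. On HFD, Ubd stood at 176 ± 56.4 FPKM (SD, n = 3), between H2-K1 (639 ± 105) and Tapbp (77.1 ± 5.49), with no overlap on either side. The remaining 9 kept their sequence, with Tap2 overlapping Psmb9 and Psmb9 overlapping Tap1 at 14.5 ± 1.85, 11.2 ± 1.98 and 8.7 ± 1.83 FPKM.

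The balance between immunoproteasome and standard subunits was taken as the ratio of their FPKM values in each library. The ratio of Psmb8 to Psmb5 was 0.247, 0.188 and 0.223 on ND and 0.261, 0.334 and 0.164 on HFD, so that HFD held both the highest and the lowest library. The log2 ratio differed by 0.15 (exact permutation test, two-sided, p = 0.7, 0.7 after Benjamini-Hochberg adjustment over 3 ratios), and by -0.08 without HFD replicate 2 and 0.44 without HFD replicate 3. The ratio of Psmb9 to Psmb6 was 0.219, 0.172 and 0.163 on ND and 0.162, 0.184 and 0.0811 on HFD, with the lowest value in HFD replicate 3. Its log2 difference was -0.45 (exact permutation test, two-sided, p = 0.4, adjusted 0.6), and -0.08 without that library.

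The third pair, Psmb10 and the Psmb7 it replaces, showed the widest separation of the 3. The ratio was 1.27, 0.841 and 1.11 on ND (1.07 ± 0.217, SD, n = 3) and 1.76, 1.37 and 1.67 on HFD (1.6 ± 0.205, SD, n = 3). Each HFD library was above each ND library. The log2 ratio was 0.59 higher on HFD (exact permutation test, two-sided, p = 0.1, adjusted 0.3), and 0.1 is the smallest p that 3 against 3 libraries allow. In FPKM, Psmb8 and Psmb9 were thus well below their counterparts in all libraries, while Psmb10 was near or above Psmb7. These levels depend on the length used for each gene. Annotated exon bases number 3381 for Psmb8 and 899 for Psmb5, 3660 for Psmb9 and 1872 for Psmb6, 1705 for Psmb10 and 3421 for Psmb7. In CPM, which uses no length, Psmb10 was below Psmb7 in every library (means 58.3 against 111 on ND, 76.2 against 96.2 on HFD). Psmb8 reached Psmb5 in HFD replicate 2 (68.3 against 67.2 CPM). The log2 differences between the diets were the same from CPM (0.15, -0.45 and 0.59). Part of the Psmb5 signal is uncertain, since 22.2% of its 100-base stretches also occur in other genes, and 11.8% of Psmb7 exon bases overlap Nek6.

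**Figure D3:**
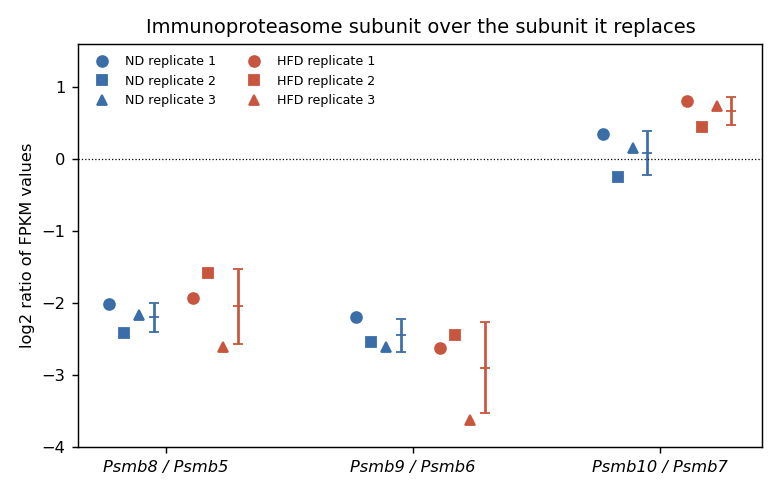
Log2 ratio of FPKM values of each immunoproteasome subunit to the standard subunit it replaces in the 3 ND (blue) and 3 HFD (red) libraries, with group mean and SD beside the points. The diets overlap for Psmb8 (0.164 to 0.334 over all libraries as a linear ratio) and Psmb9, and lie apart for Psmb10, where HFD spans 1.37 to 1.76 and ND 0.841 to 1.27.

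Among the remaining proteasome genes 0 were called. None of the 5 genes of the other immunoproteasome and PA28 list passed the test: Psmb10 at a log2 fold change of 0.39 (edgeR adjusted p = 0.0989), the PA28 activator subunits Psme1 at -0.10, Psme2 at 0.17 and Psme3 at 0.27, and the assembly factor Pomp at 0.20. Of these, 2 had an unadjusted p under 0.05, beside 34.0% of all genes tested. The standard subunits Psmb5, Psmb6 and Psmb7 were at 0.04, 0.16 and -0.20. The 11 other 20S core subunits lay between -0.07 and 0.18 and the 18 subunits of the 19S cap between -0.12 and 0.44, and 0 of the genes of these 3 lists had an unadjusted p under 0.05. DESeq2 and limma-voom also called 0 in each of the 4 lists. Of the 18 genes of the 19S cap, 16 had a positive log2 fold change (median 0.15). HFD replicate 3 was highest in 14 of them, beside 32.7% of all genes, and ND replicate 3 was lowest in 15, beside 16.3% of all genes, and the part of these 2 libraries in the median was not tested.

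Heavy chains outside the classical pair were called in both directions. Of 19 found, 15 were tested, 2 were called higher and 1 lower, with a median log2 fold change of 0.06. That is 20% called, near the 15.9% over all genes, so the count says nothing particular about these genes. H2-M2, a class I-like gene, was at 0.162, 0.406 and 0.199 CPM on ND against 3.6, 2.59 and 1.55 CPM on HFD (log2 fold change 3.32, edgeR adjusted p = 0.0105). Its ND values rest on only 3, 7 and 4 reads, so the size of the change is uncertain. By limma on log2(FPKM + 1) it was 1.17. H2-T23, which encodes the Qa-1 molecule read by NK cell receptors, was at 146, 138 and 148 CPM on ND against 194, 204 and 188 CPM on HFD (0.44, edgeR adjusted p = 0.0428). H2-Q10, known as a secreted class I molecule of the liver, was at 32.3, 80 and 30.4 CPM on ND against 6.77, 10.9 and 6.27 CPM on HFD (-2.57, edgeR adjusted p = 0.0129). The call of H2-T23 was close to the threshold. It was lost without each of ND replicates 1, 2 and 3 and HFD replicates 1 and 2 (edgeR adjusted p = 0.0544 to 0.169). That of H2-M2 was lost without ND replicate 1 (0.0539) or HFD replicate 1 (0.0523), and that of H2-Q10 without HFD replicate 1 (0.0646). H2-M2 and H2-Q10 each stayed called in 14 of 17 alternatives. In H2-Q10, 8.01% of 100-base stretches occur in other genes.

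Of the chaperones that serve class I loading besides tapasin, 0 of 7 were called by edgeR, 0 by limma-voom and 4 by DESeq2 (Calr, Pdia3, Hspa5 and Uggt1). Calr was at 355, 405 and 363 CPM on ND against 570, 483 and 910 CPM on HFD, with a log2 fold change of 0.80 (edgeR adjusted p = 0.0699). Hspa5, Pdia3, Canx and Uggt1, which also serve folding of other proteins, were at 0.88, 0.68, 0.51 and 0.50 (edgeR adjusted p = 0.0886, 0.094, 0.127 and 0.0607). Of the 7 chaperone genes, 5 had an unadjusted p under 0.05, beside 34.0% of all genes tested. Of the same 7, 6 were highest in HFD replicate 3, the library that was highest in 32.7% of all genes tested. Among the 7 peptidases that trim or destroy peptides, Tpp2 alone was called (14.3%, beside 15.9% over all genes), higher at 0.41 (edgeR adjusted p = 0.0453). Its call was lost without each of ND replicates 1, 2 and 3 and HFD replicates 1 and 3 (adjusted p = 0.0862 to 0.168). Of these peptidases, 5 had a negative log2 fold change, and the median was -0.15. Lap3 was at -0.53 and Blmh at -0.40 (edgeR adjusted p = 0.0544 and 0.0878). Erap1, which trims peptides inside the endoplasmic reticulum, was at -0.24 (edgeR adjusted p = 0.231).

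**Figure D4:**
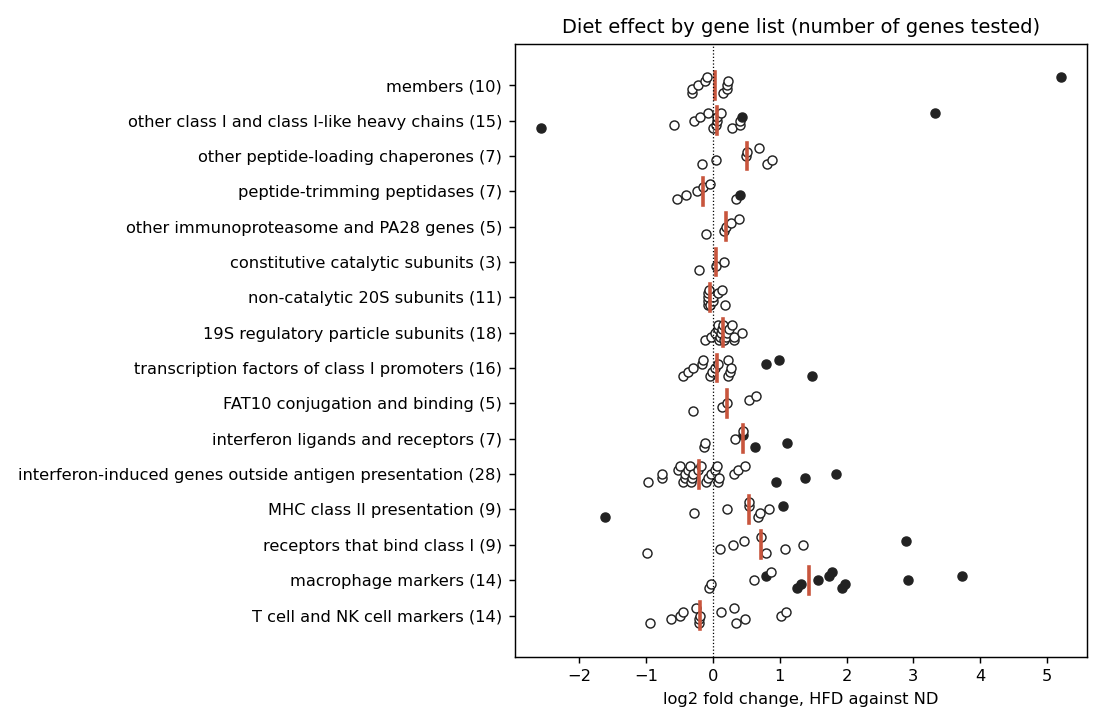
Log2 fold change of HFD against ND for each tested gene of the pathway lists and of 2 marker lists, filled where the adjusted p was under 0.05, with a red line at each list's median. Proteasome lists stay near 0 (medians from -0.05 to 0.20), interferon-induced genes centre at -0.20 and macrophage markers at 1.44.

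Of the 16 transcription factors known at class I promoters, 3 were called higher and 0 lower (18.8% called, beside 15.9% over all genes), with a median of 0.06. Irf8, a factor of myeloid cells, was at 29.5, 26.5 and 23.5 CPM on ND against 67.4, 53.1 and 102 CPM on HFD (log2 fold change 1.48, edgeR adjusted p = 0.012). Ciita, the class II transactivator and relative of Nlrc5, was at 22.1, 16.2 and 22.8 CPM on ND against 33.4, 37.4 and 35.8 CPM on HFD (0.80, edgeR adjusted p = 0.0186). Nfya, a subunit of NF-Y, was called at 0.996 (edgeR adjusted p = 0.0382). Irf1, an interferon-induced factor, was not called, at -0.02 (edgeR adjusted p = 0.958). Nfkb1 and Rela, subunits of NF-kB, were at 0.27 and 0.23 (edgeR adjusted p = 0.156 and 0.219). Calls were lost without ND replicate 1 (adjusted p = 0.0508, 0.0622 and 0.106 for Irf8, Ciita and Nfya) and without ND replicate 2 (0.0571, 0.0515 and 0.121). Ciita and Nfya also lost theirs without HFD replicate 1 (0.076 and 0.12), and Nfya without ND replicate 3 (0.101).

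Of the interferon ligands, receptors and kinases, 7 were tested and 3 were called, all higher on HFD, beside 9.85% called higher over all genes. Ifngr2, the signalling chain of the interferon-gamma receptor, was at 41.5, 39 and 40.7 CPM on ND against 75.3, 73.3 and 113 CPM on HFD (log2 fold change 1.10, edgeR adjusted p = 0.0119). Ifnar2 and the kinase Tyk2, which serve type I interferon, were called at 0.44 and 0.62 (edgeR adjusted p = 0.0373 and 0.0361). Ifngr1, the ligand-binding chain, was at -0.12 (edgeR adjusted p = 0.615). The ligand genes Ifng and Ifnb1 had too few counts to be tested, so no difference was detectable at this depth. The calls of Ifngr2, Ifnar2 and Tyk2 were all lost without ND replicate 1 (adjusted p = 0.0548, 0.153 and 0.106) or ND replicate 2 (0.0579, 0.0606 and 0.114). Ifnar2 and Tyk2 lost theirs also without ND replicate 3 (0.13 and 0.0874) or HFD replicate 1 (0.148 and 0.111), and Ifnar2 without HFD replicate 3 (0.0516).

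Among 28 interferon-induced genes outside antigen presentation, 3 were called higher and 0 lower, and 18 had a negative log2 fold change, with a median of -0.20. The share called higher, 10.7%, was close to the 9.85% over all genes. The called genes were all of the 2'-5' oligoadenylate synthetase family, which senses double-stranded RNA: Oas1a at 1.37, Oas2 at 0.95 and Oas3 at 1.84 (edgeR adjusted p = 0.0181, 0.014 and 0.0161). Each lost its call without ND replicate 1, ND replicate 2 or HFD replicate 1 (adjusted p = 0.0571 to 0.0829), and Oas1a also without ND replicate 3 (0.0617). The Oas1a count is uncertain, since 40.9% of its 100-base stretches also occur in Oas1g. The chemokine Cxcl9 was at -0.52 and the GTPase Iigp1 at -0.97 (edgeR adjusted p = 0.328 and 0.112). ND replicate 1 was the highest library in 17 of these 28 genes and in 11.7% of all genes tested, and HFD replicate 3 was the lowest in 19 of them and in 28.4% of all genes.

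Genes of class II presentation, the route of professional antigen-presenting cells, gave 1 higher and 1 lower call among 9 (22.2%, beside 15.9% over all genes). H2-DMb1, a peptide editor, was at 53.4, 39.2 and 47.8 CPM on ND against 101, 92.5 and 97.5 CPM on HFD (log2 fold change 1.05, edgeR adjusted p = 0.0074). Its neighbour H2-DMb2 was at 9.27, 7.07 and 7.76 CPM on ND against 3.66, 2.71 and 1.5 CPM on HFD (-1.61, edgeR adjusted p = 0.0234), a call lost without each of ND replicates 1, 2 and 3 and HFD replicate 1 (adjusted p = 0.0523 to 0.0897). The near copies H2-DMb1 and H2-DMb2 share 11.3% and 10.3% of their 100-base stretches, so reads could have been split between them. Cd74, H2-Aa, H2-Ab1 and H2-Eb1 were at 0.70, 0.68, 0.54 and 0.54 (edgeR adjusted p = 0.0654, 0.0715, 0.111 and 0.134). Of the receptors that bind class I, 1 of 9 tested was called (11.1%, beside 15.9% over all genes). Lilrb3, listed as Pirb in the annotation, an inhibitory receptor of myeloid and B cells, was at 19.1, 16.2 and 18.6 CPM on ND against 116, 68.5 and 214 CPM on HFD (2.88, edgeR adjusted p = 0.00845). Its count is uncertain in part, since 20.7% of its 100-base stretches also occur in relatives such as Pira2. Cd8a and Cd8b1, the coreceptor of cytotoxic T cells, were at 0.72 and 1.08 (edgeR adjusted p = 0.289 and 0.171). H2-DMb1 and Lilrb3 were the 2 of the 16 pathway genes called here and above that stayed called in all alternatives run.

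Most markers of macrophages were also higher on HFD. Of 14 macrophage markers, 10 were called higher (71.4%, beside 9.85% over all genes) and 0 lower. Their summed level was 2050 to 2155 CPM on ND against 4288 to 9260 CPM on HFD. HFD replicate 3 had the highest sum and also the highest Ubd, and HFD replicate 2 the lowest of the HFD libraries in both. Among the ND libraries the order was not shared: ND replicate 1 had the highest sum (2155 CPM) and the lowest Ubd (3.18 CPM). HFD replicate 3 was the highest library in 32.7% of all genes tested. Adgre1, which encodes F4/80, and Cd68 had the largest log2 fold changes of the 14, 2.91 and 3.72 (edgeR adjusted p = 0.00583 and 0.00642). Cd14, Mrc1, Mertk and Cd163 were not called, at 0.61, 0.87, -0.02 and -0.05. None of the markers was at 0 in any library. Divided by the macrophage sum, Ubd was 0.00148, 0.00247 and 0.00238 on ND and 0.0253, 0.0296 and 0.0241 on HFD, so that the ratio of means was 12.5 and the groups did not overlap. Divided by each marker on its own, the ratio of means ran from 3.15 (Cd68) and 5.08 (Adgre1) to 39.8 (Cd163), with a median of 13.6, and the groups did not overlap for any of the 14. For B2m the same division by the macrophage sum gave 0.907, 1.23 and 1.04 on ND and 0.452, 0.728 and 0.222 on HFD, a ratio of means of 0.442. These divisions restate the fold changes: Ubd rose 37.1-fold, beside 13.2-fold for Cd68, the most of the 14 markers, and 1.16-fold for B2m. They also depend on the markers listed, since Trem2, outside the list, had a log2 fold change of 5.31. They are thus no separate evidence on macrophage content, and its part in the level of any member was not tested.

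Markers of other cells gave a mixed picture. T cell and NK cell markers, the cells that read class I, had 0 calls among 14 by edgeR, DESeq2 or limma-voom, 0 with an unadjusted p under 0.05, and sums of 37.7 to 42.5 CPM on ND against 33.2 to 43.4 CPM on HFD. Dendritic cell markers gave 1 higher (Ccr7) and 1 lower call (Itgae) among 7 (28.6%, beside 15.9% over all genes). Their sums were 42.1 to 44.4 and 31.6 to 37.1 CPM. B cell markers gave 1 higher call among 6 (16.7%, near the 15.9% over all genes), with sums of 6.57 to 21.9 and 17.8 to 30.4 CPM. Endothelial, fibroblast and mesothelial lists gave 0 calls among 8, 7 and 5 genes (1, 1 and 0 with an unadjusted p under 0.05, 0 by limma-voom, and 1, 1 and 0 by DESeq2). The endothelial sum was 1317 to 1627 CPM on ND against 752 to 1522 CPM on HFD, lowest in HFD replicate 3. The fibroblast and progenitor sum was 5038 to 5857 CPM on ND against 3547 to 6522 CPM on HFD, and the mesothelial sum was 203 to 295 CPM and 141 to 250 CPM.

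Markers of the labelled tissue were present: adipocyte genes summed to 35664 to 46182 CPM on ND against 14775 to 33851 CPM on HFD, with none at 0. Of the 12, 1 was called higher (8.33%, beside 9.85% over all genes) and 3 lower (25%, beside 6.04%). The lowest sum was in HFD replicate 3. Epithelial markers summed to 189 CPM in ND replicate 3 and to 9.89 to 13.8 CPM in the other 5 libraries, with 4 of the 7 genes at 0 in at least one library (Epcam, Cdh1, Cldn4 and Cldn7). Count totals were 16996896 to 18859320 per library, and 3 counts corresponded to 0.149 to 0.18 CPM, which covers counting error only. The number of genes called over the whole table depended on the libraries, from 474 without HFD replicate 1 to 3940 without HFD replicate 2, beside 2504 with all 6.

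The genes around Ubd were described by position. The stretch from H2-K1 to Ubd (chr17:33996017-37196095) holds 293 annotated genes, of which 118 were tested, 8 were called higher and 6 lower. That is 11.9%, beside 15.9% over all genes, and the median log2 fold change was 0.04. The tested genes nearest to Ubd were H2-M3, a class I-like gene 76.3 kb away, at 0.12 (edgeR adjusted p = 0.629) and Gabbr1, a GABA receptor subunit 147.9 kb away on the other side, at -0.26 (edgeR adjusted p = 0.64). H2-M2, called higher at 3.32 as given above, lies 289.7 kb beyond Ubd, outside the stretch. Among the called genes in the stretch was Tnf, the cytokine, at 1.90 (edgeR adjusted p = 0.0221), chosen here after its value was seen.

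**Figure D5:**
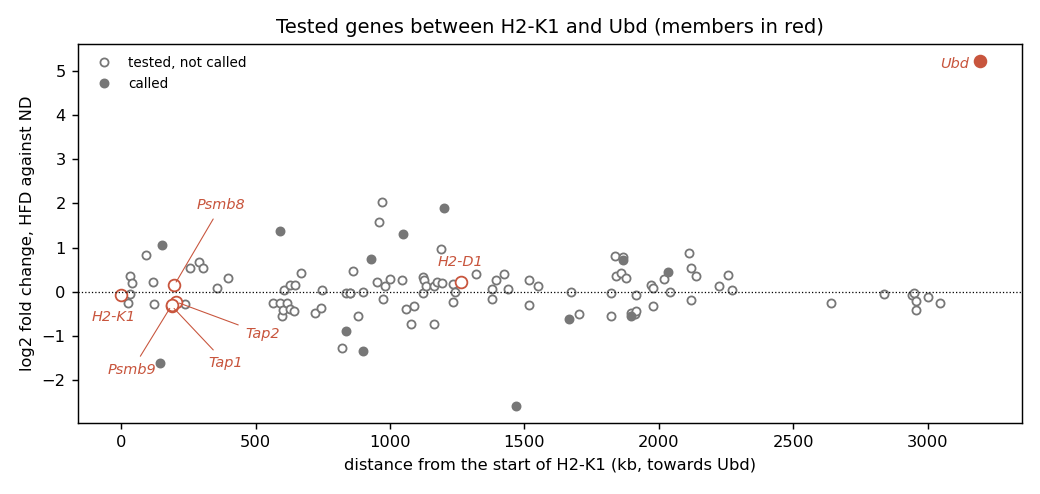
Log2 fold change of HFD against ND for the 118 tested genes from H2-K1 to Ubd, against distance from the start of H2-K1 in kb, with members in red and called genes filled. Ubd at 5.21 stands alone at the right edge, 3193.5 kb from H2-K1, while the 6 other members in the stretch lie between -0.32 and 0.22.

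The members did not share one profile over the 6 libraries. Likeness was measured as the root mean square (RMS) difference of log2 CPM after centring each gene on its own mean, over 13104 genes with a mean log2 CPM above 1. Tap1 and Psmb9 were close (0.0661), as were Tap2 and Psmb9 (0.084), and Tap1, Tap2 and Psmb9 were all highest in ND replicate 1 and lowest in HFD replicate 3. H2-D1 and Tapbp (0.0985), Tapbp and Psmb8 (0.101) and H2-D1 and B2m (0.116) were near each other. Ubd was at 2.49 or more from each of the other 9. Psmb9 was the third nearest of all genes to Tap1, after Lysmd2 and Chst7, and no other member was among the 3 nearest genes of another.

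The genes nearest to Ubd were Trem2 (RMS difference 0.33), a lipid receptor of macrophages, Il7r (0.392), the interleukin-7 receptor, and Cd300c2 (0.511), a receptor of the CD300 family. Trem2 was at 7.76, 7.65 and 9.65 CPM on ND against 286, 167 and 543 CPM on HFD. Its HFD replicates were in the same order as those of Ubd, and its ND replicates were not. Its log2 fold change was 5.31 (edgeR adjusted p = 0.00344), and those of Il7r and Cd300c2 were 5.79 and 4.60 (edgeR adjusted p = 0.00329 and 0.00554). A large shared difference between the diets is by itself enough to bring genes close on this measure. The gene nearest to Nlrc5 was Irf1 (0.0502), which was at 78.5, 51.2 and 52.7 CPM on ND against 66.7, 62.2 and 51.4 CPM on HFD, again highest in ND replicate 1.

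Nearest to the remaining members were Fbxo36 for H2-K1 (0.0397), Ost4 for H2-D1 (0.0325), Iqsec1 for B2m (0.0566), Ripor1 for Tap2 (0.0345), Tbcd for Tapbp (0.0228), Gabpb1 for Psmb8 (0.0246) and Notch3 for Psmb9 (0.0373). None of these was called.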

How the data were processed

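RNA-Seq of epididymal fat (3 ND and 3 HFD libraries) was used. The authors deposited raw counts per gene and FPKM values for the same libraries. The paper's methods name TopHat and Cufflinks on GRCm38, whereas the submitters' processing notes name CASAVA 1.8, fastp, HISAT2 2.0.5, featureCounts 1.5.0-p3 and DESeq2 1.20.0 with builds GRCh38 and hg38; all identifiers are mouse, 54495 of 54532 were found in GENCODE M21 (GRCm38), and which pipeline made the counts is unresolved. Groups came from the sample labels. Counts were tested with edgeR 4.0.16 in R 4.3.3 (quasi-likelihood F-test, robust=TRUE, TMM, filterByExpr, diet as the only factor, Benjamini-Hochberg over 15751 genes, threshold 0.05). CPM used count totals times TMM factors. Subunit ratios used FPKM with exact permutation tests. Other settings tried were limma-voom (limma 3.58.1), DESeq2 1.42.0, other scalings and filters, limma on log2(FPKM + 1) or log2(FPKM + 0.1), the replicate number as a block, and each library left out. The genes named were all members, genes of the written lists, the 3 nearest profiles per member and genes between H2-K1 and Ubd. Members and lists were chosen with earlier results of these data known. Scripts were tested on simulated data.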

Additional observations from a re-analysis of the deposited data

How the results depend on the processing

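Ubd was the single member called in all 17 alternatives, with a log2 fold change of 4.90 to 5.37 and an adjusted p of at most 0.0119. The other 9 members stayed uncalled in all of them. With 1 library left out, H2-K1 ranged from -0.19 to 0.03 and turned sign without ND replicate 2 (0.03) and HFD replicate 3 (0.02), Nlrc5 ranged from -0.24 to 0.12 and turned without ND replicate 1 (0.12), and the log2 ratio of Psmb8 to Psmb5 ranged from -0.08 to 0.44 and turned without HFD replicate 2 (-0.08). The cause was not tested. Genes called over the whole table numbered 2504, and 474 to 3940 when 1 library was left out (492, 591 and 1003 without ND replicates 1, 2 and 3, 474, 3940 and 2095 without HFD replicates 1, 2 and 3), 579 by limma on log2(FPKM + 1) without the filter, and 3629 by DESeq2. Under a replicate block 1886 genes were called, 1693 of them shared with the fit without it, and the calls of the members did not change. Deviations of same-numbered libraries correlated at -0.0858, -0.0556 and -0.00532, so the numbers were not taken to pair them. Of the 16 pathway-list genes called, 2 to 16 were called under an alternative, fewest by limma without the filter, and 3, 4 and 4 without ND replicate 1, ND replicate 2 and HFD replicate 1. With 3 libraries per diet, differences inside the printed intervals could not be resolved.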
